A study of Mus musculus with 16 samples.

Results

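The thick ascending limb (TAL) is the last part of the loop of Henle in the nephron and leads to the distal convoluted tubule. Described here are 10 genes that mark it, in whole kidneys of mice that lost Hes1: Umod, Egf, Ppp1r1a, Ptger3, Casr, Irx1, Irx2, Nos1, Tmem207 and Kng2. They were found by symbol in a table of read counts with 28971 genes, and all 10 were among the 15615 genes with enough counts to be tested. The Hes1 cKO (conditional knockout) mice carried Pax8-rtTA, TRE-Cre and Hes1 f/f, a combination in which doxycycline turns on Cre recombinase where Pax8 is active and Cre then deletes floxed Hes1. Controls were wild type littermates, and no transgene is named for them. Mice of both groups drank doxycycline at 1 mg/mL in water with 5% sucrose for 1 week from the age of 3 weeks, after which total RNA of whole kidneys was read as 150-base pairs. The sample titles name 7 Hes1 cKO and 9 control kidneys. Only the 3 Hes1 cKO and 4 control libraries whose columns state a genotype could be used, and the numbers given to them below are names without order or pairing. Nothing says whether a library came from 1 animal, so p-values measure the spread between these libraries.

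TAL cells reabsorb sodium, potassium and chloride without water, which dilutes the urine and builds the salt gradient of the medulla, and the voltage they set up drives calcium and magnesium between the cells. They also make uromodulin, the most abundant protein of normal urine, and they end at the macula densa, a patch of cells that reads luminal salt and signals to the glomerulus and to renin cells. Pax8 is active along the whole nephron and the collecting duct, so TAL cells lie within the reach of the Cre used here. Hes1 is a transcriptional repressor downstream of Notch receptors, and the study asked how its loss changes the cell types of the collecting duct. The TAL markers show another segment of the same kidneys. In whole-kidney RNA, fewer cells of a type and less RNA per cell cannot be told apart.

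Because Hes1 binds DNA, the stretch just before each RefSeq start of the members was read for its motifs. RefSeq windows (GRCm38.p6) were found for 8 of the 10 members and not for Ppp1r1a and Irx1. In 9 windows, each covering the 200 bases from 250 to 51 before a start (Egf has 2 starts), the N-box CACNAG of Hes proteins occurred in 3, those of Egf, Nos1 and Irx2, and in 31.1% of all 32851 windows of that length. The other Hes site, CACGNG, was in none of the 9 and in 18.4% of all windows. Some RefSeq starts are internal to the gene as annotated by GENCODE. The windows of Nos1 (chr5:117866589-117866788) and Kng2 and the second window of Egf (chr3:129725137-129725336) lie inside the annotated gene. The N-box of Nos1 is thus not before its outermost start. Both strands were searched, and none of the 3 N-box matches overlapped a match of the broader E-box CANNTG. Shown are 2 windows with an N-box, that of Egf, the most abundant of the 3 genes, and that of Irx2, a transcription factor. Capitals mark the N-box, with each window written 5′ to 3′ on the strand of the gene. The N-box of Egf is on the opposite strand, so its capitals show the reverse complement. The window of Egf lies at chr3:129755373-129755572 (minus strand) and that of Irx2 at chr13:72628570-72628769 (plus strand).
Egf: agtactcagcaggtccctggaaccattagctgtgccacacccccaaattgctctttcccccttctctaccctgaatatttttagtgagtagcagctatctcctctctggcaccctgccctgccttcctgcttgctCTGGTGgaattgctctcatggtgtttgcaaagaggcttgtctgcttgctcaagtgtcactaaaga
Irx2: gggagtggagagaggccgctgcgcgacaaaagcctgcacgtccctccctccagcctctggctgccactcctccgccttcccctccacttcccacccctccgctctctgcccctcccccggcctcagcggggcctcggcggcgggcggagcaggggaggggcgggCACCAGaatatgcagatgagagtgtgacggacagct
A match is a string of letters and not a bound site. In the counts described below, none of the genes with an N-box in its window differed between the groups beyond the spread of the libraries.

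The libraries held 16973931 to 20420422 counts, and levels are given in CPM, the counts relative to library sizes scaled by TMM (a trimmed mean of ratios between libraries). Hes1 was at 17.2 to 19.8 CPM in the Hes1 cKO libraries, all below the controls at 42.8 to 67.6 CPM (log2 fold change -1.61, edgeR adjusted p 0.00357). Slc12a1, the sodium, potassium and chloride cotransporter that defines the TAL, was present in all 7 libraries at 1562 to 2098 CPM. Xist reached 333 to 367 CPM in 3 libraries (Hes1 cKO 3, control 3 and control 4), while the remaining 4 had 0.371 CPM at most.

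Per exon length, the members spanned a wide range, and Umod led it. In controls Umod stood at 1054 ± 108 CPM per kb of exon (SD, n = 4), 5.47-fold above Egf at 193 ± 27.4 CPM per kb. Exon length here joins the exons of all annotated transcripts of a gene, 2.76 kb for Umod and 11.28 kb for Egf. Before division by length, their control means were 2911 and 2172 CPM, so the size of the gap depends on the annotated lengths. Egf and Ppp1r1a (186 ± 40.6 CPM per kb) did not differ beyond their spread in controls, although Egf was the higher in 5 of 7 libraries. Then came Kng2 (106 ± 12.3 CPM per kb), Irx1 (39.9 ± 8.26), Casr (24.7 ± 3.55), Ptger3 (16.1 ± 3.41), Irx2 (12.7 ± 2.00) and Tmem207 (7.38 ± 0.265), each below its predecessor in all 7 libraries. The ranges over all 7 libraries of Ppp1r1a and Kng2, of Irx1 and Casr, and of Ptger3 and Irx2 overlapped. Nos1 was lowest by far, at 0.459 ± 0.149 CPM per kb, 16.1-fold below Tmem207. The order of the 10 levels by their means was the same in Hes1 cKO.

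**Figure D1:**
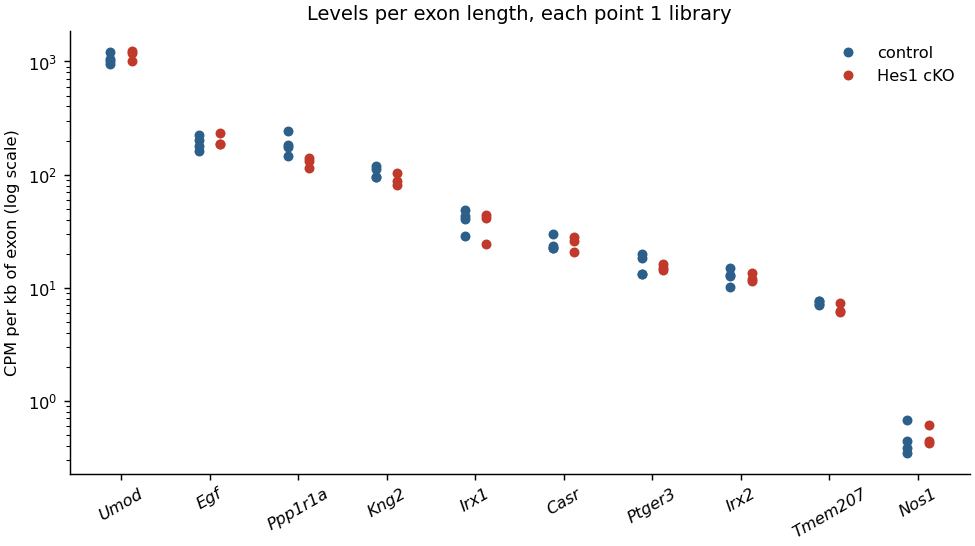
Level of each marker per kb of exon on a log axis, 1 point per library, controls in blue and Hes1 cKO in red, ordered by the control mean. Umod stands apart at the top (1054 ± 108 CPM per kb in control) and Nos1 at the bottom (0.459 ± 0.149 CPM per kb in control), and the colours overlap in height for every gene except Ppp1r1a, where red lies below blue.

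No TAL marker passed the test with the loss of Hes1. Of the 10, 4 had a higher and 6 a lower mean in the mutants. Their log2 fold changes had a median of -0.06, and for all 15615 tested genes the median was -0.0064. None was called by edgeR's quasi-likelihood test at an adjusted p under 0.05, a rule that called 0.339% of all tested genes. DESeq2 and limma-voom also called none of them. At an unadjusted p under 0.05 there was 1 of 10, Ppp1r1a, and the background is 5.95%. The groups did not overlap for that 1 gene alone, and for 7.01% of all tested genes. Apart from Ppp1r1a, every fold change lay within 0.25 of 0 on the log2 scale. Together the 10 genes took 0.56% to 0.668% of the counts of a Hes1 cKO library and 0.547% to 0.693% of a control library.

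**Figure D2:**
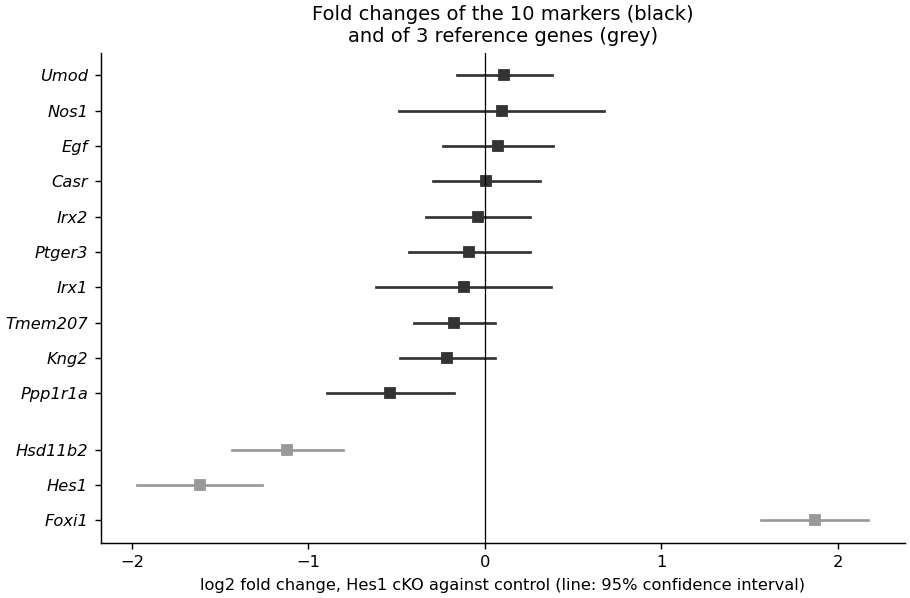
Log2 fold change of each marker (black squares) with its 95% confidence interval (lines), above 3 other genes in grey: Hsd11b2, Hes1 and Foxi1. The intervals of 9 markers cross 0, that of Ppp1r1a runs from -0.89 to -0.18, and the grey genes lie further from 0.

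The secreted proteins came first in abundance. Umod (ENSMUSG00000030963, chr7:119462711-119479282) encodes uromodulin, which forms filaments in the urine that bind bacteria. It stood at 3394, 3277 and 2765 CPM in Hes1 cKO 1, 2 and 3 and at 2906, 2622, 3324 and 2791 CPM in control 1, 2, 3 and 4. The groups overlapped widely, with both a high and a low library on each side. The means were 3146 ± 334 CPM (SD, n = 3) and 2911 ± 299.5 CPM (SD, n = 4), and the log2 fold change was 0.11 (SE 0.12, 95% interval -0.16 to 0.38, edgeR adjusted p 0.974). An antisense gene overlaps 19.5% of the exon bases of Umod but had 0 counts in these libraries.

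Egf (ENSMUSG00000028017, chr3:129677565-129755316) encodes the precursor of epidermal growth factor, a ligand of EGFR that supports magnesium uptake further downstream. The Hes1 cKO libraries gave 2113, 2643 and 2114 CPM and controls 1828, 2300, 2532 and 2026 CPM. The highest value was in Hes1 cKO 2 and the lowest in control 1. Antisense genes overlap 5.4% and 4.4% of its exon bases, with 70 and 261 counts over all libraries, and the strand setting of the counting is unknown. The log2 fold change was 0.08 (SE 0.14, interval -0.23 to 0.39, edgeR adjusted p 0.987), and it took the other sign, -0.04, without Hes1 cKO 2.

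Kng2 (ENSMUSG00000060459, chr16:22985854-23029482) encodes a kininogen, the precursor from which kallikreins release kinins. It was at 242, 284 and 222 CPM in Hes1 cKO, beside 263, 306, 328 and 259 CPM in control. Hes1 cKO 1 and 3 lay below all controls, and Hes1 cKO 2 lay among them. The log2 fold change was -0.21 (SE 0.12, interval -0.48 to 0.06, edgeR adjusted p 0.932). Its paralog Kng1 shares 19.4% of the 50-base words of the Kng2 transcripts, so reads from those parts may be split or dropped, though Kng1 itself had no more than 2.33 CPM.

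The receptors of the group are Casr, the calcium-sensing receptor that restrains salt and calcium uptake when blood calcium is high, and Ptger3, a receptor for prostaglandin E2 that lowers cyclic AMP. Casr (ENSMUSG00000051980, chr16:36493696-36562141) was at 123, 131 and 97.3 CPM in Hes1 cKO, beside 106, 107, 141 and 111 CPM in control. The group means were almost equal, 117 ± 17.7 CPM (SD, n = 3) and 116 ± 16.8 CPM (SD, n = 4), with a log2 fold change of 0.01 (SE 0.14, interval -0.29 to 0.32, edgeR adjusted p 0.996). The extremes of both kinds were single libraries: Hes1 cKO 3 lay lowest and control 3 highest.

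Ptger3 (ENSMUSG00000040016, chr3:157566892-157645888) was at 81.4, 84.7 and 92.3 CPM in Hes1 cKO, beside 75.7, 74.6, 113 and 103 CPM in control. The controls split into a low and a high pair, with the Hes1 cKO libraries between them. Its log2 fold change was -0.09 (SE 0.15, interval -0.43 to 0.25, edgeR adjusted p 0.985).

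The signalling proteins inside the cell held the member that differed most. Ppp1r1a (ENSMUSG00000022490, chr15:103530279-103538003) encodes inhibitor 1 of protein phosphatase 1, which blocks the phosphatase once protein kinase A has phosphorylated it. It was at 181, 151 and 171 CPM in Hes1 cKO 1, 2 and 3 and at 236, 189, 316 and 231 CPM in control 1, 2, 3 and 4. Every Hes1 cKO library lay below every control, but Hes1 cKO 1 and control 2 were close. The means were 168 ± 15.6 CPM (SD, n = 3) and 243 ± 53.1 CPM (SD, n = 4), 0.69 of the control level. The edgeR fold change on the log2 scale was -0.535 (SE 0.16, interval -0.89 to -0.18), with an unadjusted p of 0.00805 and an adjusted p of 0.55, so the gene was not called. The exact two-sided permutation test over 35 splits gave p = 0.0571, and 0.0286 is the smallest it can give. Relative to Slc12a1 in the same library the groups still did not overlap (log2 difference -0.39, exact permutation p = 0.0571). Over all 14 alternatives of the gene test the adjusted p ran from 0.0863 (DESeq2) to 1, and the fold change from -0.64 to -0.38 (without control 3) on the log2 scale.

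Nos1 (ENSMUSG00000029361, chr5:117781032-117958840) encodes the neuronal nitric oxide synthase, which in the kidney marks the macula densa. It had 70 to 137 counts in a library, or 4.76, 4.90 and 6.76 CPM in Hes1 cKO and 4.88, 4.24, 7.52 and 3.82 CPM in control. The highest value was in control 3 and the lowest in control 4. With a log2 fold change of 0.10 (SE 0.26, interval -0.48 to 0.68, edgeR adjusted p 0.992), this was the member with the widest interval.

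Irx1 and Irx2 are Iroquois homeodomain transcription factors whose genes lie in 1 cluster on chromosome 13 and which help set the intermediate segments of the nephron. Irx1 (ENSMUSG00000060969, chr13:71957921-71963723) was at 115.5, 109 and 64.0 CPM in Hes1 cKO, beside 126, 112, 105 and 75.0 CPM in control. Hes1 cKO 3 and control 4 were low, and the other 5 libraries lay between 105 and 126 CPM. The log2 fold change was -0.12 (SE 0.22, interval -0.62 to 0.38, edgeR adjusted p 0.987), and +0.10 without Hes1 cKO 3. Irx2 (ENSMUSG00000001504, chr13:72628820-72634198) was at 39.5, 44.55 and 37.6 CPM in Hes1 cKO, beside 33.2, 41.6, 49.1 and 42.9 CPM in control. Here the controls enclosed the Hes1 cKO libraries, with a log2 fold change of -0.04 (SE 0.13, interval -0.33 to 0.26, edgeR adjusted p 0.992). After removal of the group means, Irx1 and Irx2 did not vary together over the 7 libraries (r = -0.09, a description).

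Tmem207 (ENSMUSG00000091972, chr16:26503656-26526769) encodes a small membrane protein, and its gene lies 20.9 kb from Cldn16, the gene of a claudin through which magnesium and calcium pass. Tmem207 was at 16.4, 16.8 and 19.6 CPM in Hes1 cKO, beside 19.1, 20.4, 20.5 and 19.4 CPM in control. The controls were tight, and Hes1 cKO 1 and 2 lay below them while Hes1 cKO 3 lay among them. The log2 fold change was -0.17 (SE 0.10, interval -0.40 to 0.06, edgeR adjusted p 0.937), the smallest SE among the members.

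**Figure D3:**
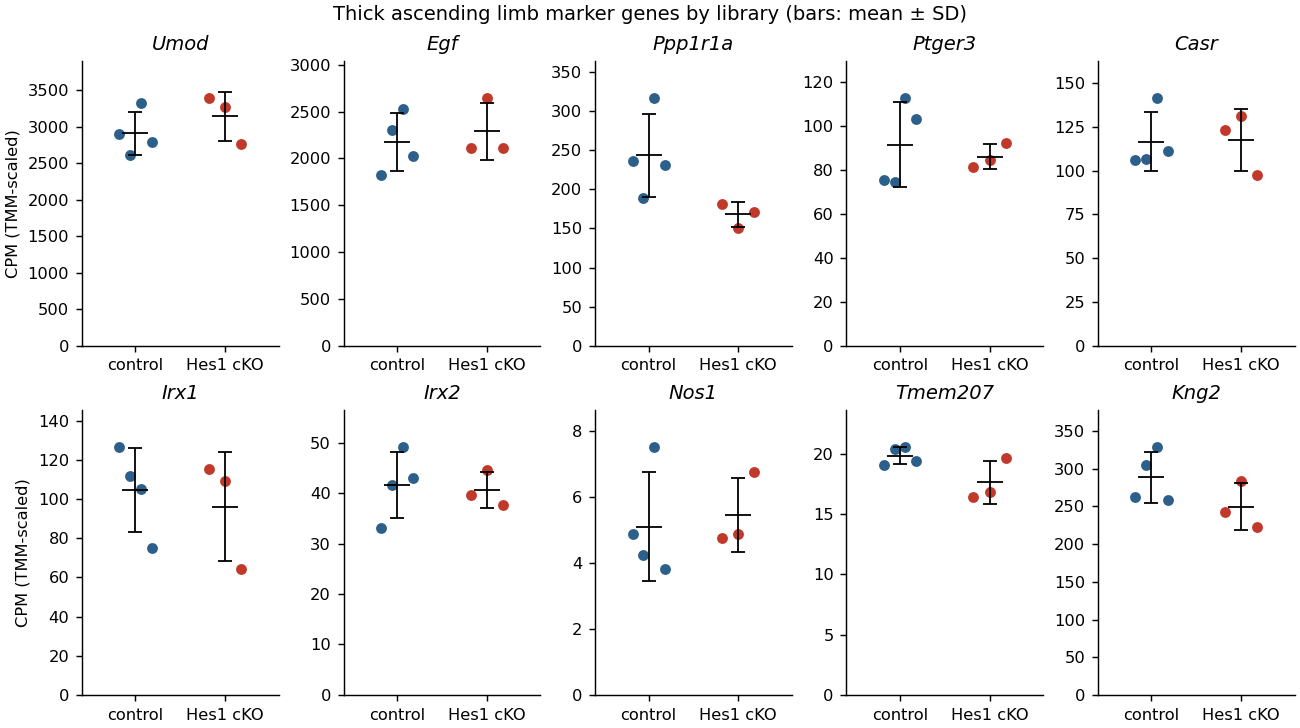
Level of each marker in CPM, 1 point per library, with the mean and SD as bars (4 controls in blue, 3 Hes1 cKO libraries in red, each axis from 0). Ppp1r1a is the panel without overlap, with Hes1 cKO at 151 to 181 CPM and controls at 189 to 316 CPM.

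Although the summed level of the 10 genes overlapped between the groups (5591 to 6747 CPM in Hes1 cKO, 5599 to 6937 CPM in control), its makeup did not. Umod and Egf made up 87.3% to 87.8% of that sum in Hes1 cKO and 84.4% to 85.2% in control. The other 8 genes summed to 711 to 826 CPM in Hes1 cKO and to 846 to 1081 CPM in control, with means of 781 ± 60.9 CPM (SD, n = 3) and 911 ± 113 CPM (SD, n = 4). Ppp1r1a and Kng2 are the most counted of those 8. Ppp1r1a, at 151 to 181 CPM in Hes1 cKO and 189 to 316 CPM in control, was the only member whose groups did not overlap by itself. The sum of the 8 includes it, so that sum does not show a shift of the remaining genes together. Neither the sum nor the share of Umod and Egf was computed without Ppp1r1a. The share and the sums cover chosen genes and were not tested.

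The transport genes of the TAL were described next, from a list of 11. Of 10 tested genes, 4 were higher and 6 lower, none was called, and their log2 fold changes had a median of -0.14. They run from Bsnd (0.06), a chloride channel subunit, to Cldn16 (-0.39). Slc12a1 was at 1562, 1748 and 1621 CPM in Hes1 cKO, beside 1631, 1600, 2098 and 1882 CPM in control, with overlap and a log2 fold change of -0.13 (SE 0.12 and, by edgeR, adjusted p 0.962). Kcnj1, the potassium channel that recycles potassium for Slc12a1, was at 252.5, 244 and 279 CPM against 271, 331, 386 and 282 CPM. Only Hes1 cKO 3 reached into the control range, and the log2 fold change was -0.30 (SE 0.13 and, by edgeR, adjusted p 0.833). Without control 3, the median of the list was -0.05, Slc12a1 was at -0.05 and Kcnj1 at -0.19 on the log2 scale.

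Cldn16, the neighbour of Tmem207, was at 13.4, 10.8 and 11.8 CPM in Hes1 cKO, beside 15.3, 16.6, 16.1 and 14.7 CPM in control, without overlap. Its log2 fold change of -0.39 (SE 0.11) had an unadjusted p of 0.00716 and an edgeR adjusted p of 0.531, and it was not called. In all, 3 of the 10 transport genes had an unadjusted p under 0.05, against 5.95% of all tested genes. The list was chosen with earlier results of these data known, so the difference between these shares was not tested.

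A list of 7 other transcription factors of the TAL and its neighbours gave 3 higher, 4 lower and none called, from Tfap2b at -0.25 to Irx5 at 0.20 on the log2 scale. Of 4 tested genes for hormone input (the receptors Pth1r, Calcr and Gcgr and the cyclase Adcy6), 2 were higher, 2 lower and none was called, with a median log2 fold change of 0.02. Egfr, the receptor for Egf, was at 52.6, 73.7 and 61.9 CPM in Hes1 cKO, beside 60.3, 61.2, 46.0 and 63.5 CPM in control. The groups overlapped, with a log2 fold change of 0.12 (SE 0.14 and, by edgeR, adjusted p 0.974). With Egfr, 6 genes for receptors and partners of Egf and Umod gave 5 higher, 1 lower and none called. For G proteins and other partners of the receptors and of Nos1, 4 of 8 were higher, 4 lower and none was called, with Ptges, a prostaglandin E2 synthase, the highest at 0.33 on the log2 scale. Among 7 genes for partners of Ppp1r1a (catalytic subunits of protein phosphatase 1 and of protein kinase A, and related inhibitors), 5 were higher, 2 lower and none was called. Their largest difference was in Ppp1r1b, the inhibitor most like Ppp1r1a, at -0.27 on the log2 scale (SE 0.19, edgeR adjusted p 0.942).

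Genes of the macula densa and of the renin response it controls split evenly. With Nos1 among them, 3 of 6 were higher and 3 lower, none was called, and the median log2 fold change was 0.02. Ptgs2, the cyclooxygenase of macula densa cells, had a log2 fold change of -0.05 (SE 0.27), and Pappa2, a protease made there, one of 0.09 (SE 0.25). Ren1 ranged from 76.6 to 194 CPM in Hes1 cKO and from 77.2 to 216 CPM in control, a spread that covered any difference (log2 fold change -0.14, SE 0.37). Avpr1a, a vasopressin receptor found in macula densa and in intercalated cells, was the largest of the list. It was at 22.1, 28.2 and 26.6 CPM in Hes1 cKO, beside 11.6 to 17.2 CPM in the 4 controls. The groups did not overlap, yet the log2 fold change of 0.70 (SE 0.16) had an edgeR adjusted p of 0.219 and was not called, whereas DESeq2 (adjusted p 0.00696) and edgeR without a low-count filter (0.0308) called it. The intercalated cell genes given below moved in the same libraries, and their part in the level of Avpr1a was not tested.

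Of 4 tested genes of the kinin system around Kng2, 2 were higher and 2 lower, and 1 was called. Kng1, the paralog, was at 0.529, 0.643 and 0.471 CPM in Hes1 cKO, beside 1.09 to 2.33 CPM in the 4 controls. It had 8 to 44 counts in a library, and despite separate groups its log2 fold change of -1.40 (SE 0.37) was not called (edgeR adjusted p 0.465). Klk1, tissue kallikrein, named after its value was seen, was at 725, 761 and 725 CPM against 793, 1284, 1402 and 1003 CPM, again without overlap. It had a log2 fold change of -0.60 (SE 0.18) and was not called by edgeR (adjusted p 0.538), while DESeq2 gave 0.044. Bdkrb2, the kinin B2 receptor, was the called gene of the list: it rose in Hes1 cKO, to 4.71 ± 0.255 CPM (SD, n = 3) where controls had 1.73 ± 0.462 CPM (SD, n = 4), by 1.44 on the log2 scale (SE 0.23 and, by edgeR, adjusted p 0.0448). That call was lost with scaling by total counts (0.0524) and on leaving out any 1 of 6 libraries, with edgeR adjusted p-values up to 0.24 (without Hes1 cKO 2), and stood without control 4.

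Beside the TAL markers, the other cell types set the scale. Of 8 intercalated cell genes all 8 were higher and 7 were called, with a median log2 fold change of 1.41. Their summed level was 1128 to 1274 CPM in Hes1 cKO and 411 to 549 CPM in control. Hmx2 and Foxi1, transcription factors of these cells, had log2 fold changes of 2.44 and 1.87. Of 7 tested principal cell genes all 7 were lower and 1 was called, Hsd11b2 (log2 fold change -1.12, edgeR adjusted p 0.0104), a call that did not survive leaving out Hes1 cKO 1 (adjusted p 0.0579) or Hes1 cKO 2 (0.0742). The segments on either side of the TAL had no called gene, with medians of -0.18 for 2 thin limb genes and -0.28 for 4 distal convoluted tubule genes. Leaving out 1 library moved the thin limb median between -0.36 (without control 2) and -0.02 (without Hes1 cKO 2), and that of the distal convoluted tubule to -0.14 (without Hes1 cKO 2). Proximal tubule genes had a median of -0.16, 5 of 6 lower, and of -0.09 without control 1. The difference between the TAL list and any other list was not tested.

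**Figure D4:**
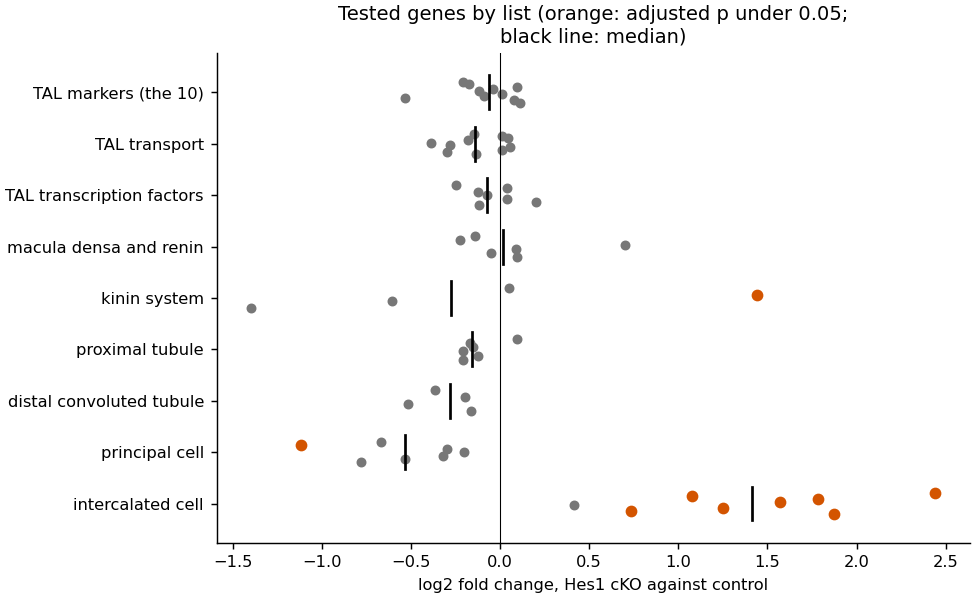
Log2 fold changes of the tested genes of 9 lists, 1 point per gene, with called genes in orange and the median of each list as a black line. The TAL markers centre on -0.06 with Ppp1r1a as the low point, while intercalated cell genes centre on 1.41.

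For markers of cells outside the tubule, of injury and of adrenal tissue, the summed level of each list overlapped between the groups. The summed level of 4 stromal genes was 188 to 436 CPM in Hes1 cKO and 236 to 367 CPM in control, that of 5 endothelial genes 166 to 214 CPM and 191 to 214 CPM, and that of 4 tubular injury genes 10.1 to 15.6 CPM and 8.60 to 17.6 CPM. The 5 endothelial genes all had a lower mean in the mutants. The median of their log2 fold changes was -0.10, and it was -0.25 without Hes1 cKO 1 and -0.003 without Hes1 cKO 3. Emcn, an endothelial surface mucin, was at 26.8, 22.9 and 19.1 CPM in Hes1 cKO, beside 28.7 to 35.8 CPM in the 4 controls. Its groups did not overlap, but at a log2 fold change of -0.47 (SE 0.13, unadjusted p 0.00643) it was not called by edgeR (adjusted p 0.512). For 4 immune genes found the ranges were 52.4 to 65.0 CPM and 47.4 to 70.5 CPM, with the T cell marker Cd3e at 0.274 CPM at most. The 5 adrenal genes summed to 2.57 to 689 CPM in Hes1 cKO and 3.02 to 557 CPM in control, and their median log2 fold change went from 0.47 to -3.22 without Hes1 cKO 3. The part of these cell types in the levels of the TAL markers was not tested.

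Of the 10 members, 3 lie on chromosome 16, which also carries the floxed Hes1 gene (chr16:30064384-30067796): Tmem207 at 3.54 Mb, Casr at 6.43 Mb and Kng2 at 7.03 Mb from it. Within 10 Mb of Hes1, 167 genes were tested, the 3 members among them, none was called by edgeR and 11 had an unadjusted p under 0.05 (6.59%, against 5.95% of all genes). Their median log2 fold change was -0.015.

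Within the groups, several markers moved together from library to library. After the group means were taken out, 16 of 45 pairs of members had a Pearson correlation over 0.5 across the 7 libraries and 8 were below 0, with a median of 0.34. The closest pairs were Egf with Kng2 (0.94), Umod with Casr (0.91) and Egf with Irx2 (0.88). Casr followed the mean of the other 9 most closely (0.86), while Irx1 (0.01) and Tmem207 (-0.08) did not follow it. Of 9741 other genes at 10 CPM or more, the 4 most like the mean of the members were Wnk1 (0.96), Dusp9 (0.96), Tap1 (0.95) and Zfp385a (0.95), and none of the 4 was called. Slc12a1 reached 0.77. These correlations describe 7 libraries, and no p is given. The mean of the members deviated most in control 3, by 0.25 from its group mean on the log2(CPM + 1) scale. In the remaining libraries it deviated by -0.09 (control 4) to 0.07 (Hes1 cKO 2). Control 3 therefore weighs heavily in the correlations with the mean, those of the 4 genes most like it included. No correlation was computed without control 3. The part of depth or library preparation in the correlations was not tested. The share of pairs over 0.5 among all tested genes was not computed, so the counts of pairs have no background beside them.

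Control 3 stood high for most members. It had the highest level of the 4 controls for 9 of the 10 genes, Irx1 being the exception, while it was the highest control for 24.1% of all tested genes. Slc12a1 was highest in the same library. With that library left out, the members had a median log2 fold change of 0.04 and Ppp1r1a one of -0.38, and no member was called.

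**Figure D5:**
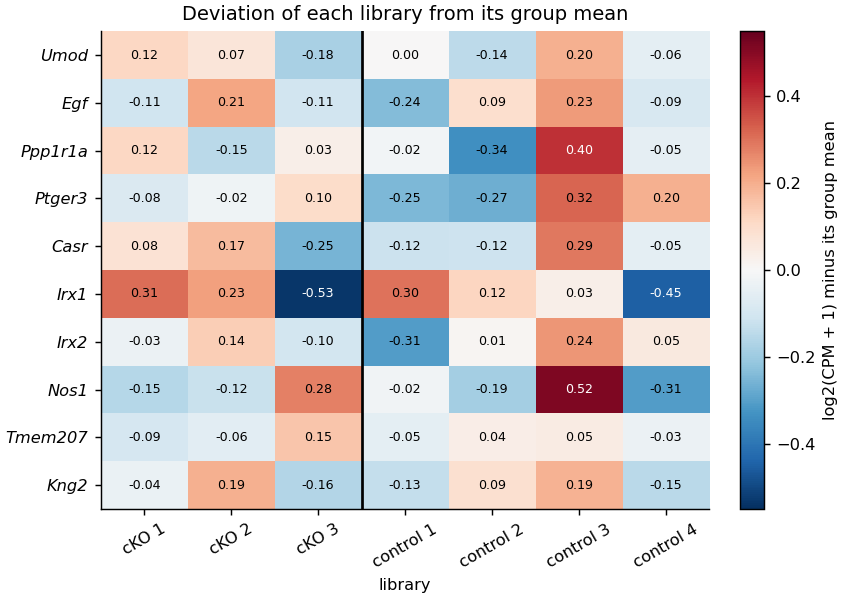
Deviation of log2(CPM + 1) from the group mean for each marker (rows) and library (columns), red above and blue below the mean, with the value in each cell. The column of control 3 is red for all 10 genes, palest for Irx1 (0.03) and Tmem207 (0.05), and the row of Irx1 is bluest in Hes1 cKO 3 (-0.53) and control 4 (-0.45).

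Finally, the markers were set beside Xist, because the column names give no sex and the sample titles list both sexes in both groups. For 2 of the 10 genes the 4 libraries with low Xist and the 3 with high Xist did not overlap, a pattern met by 11.9% of all tested genes. Irx1 was at 109 to 126 CPM with low Xist and at 64.0 to 105 CPM with high Xist. Ptger3 went the other way, at 74.6 to 84.7 CPM with low and at 92.3 to 113 CPM with high Xist. The Hes1 cKO minus control difference of Ppp1r1a was negative on both sides, at -0.35 in the low-Xist and -0.65 in the high-Xist libraries on the log2(CPM + 1) scale. For Umod, Egf, Ptger3, Casr and Irx2 the difference was positive with low Xist and negative with high Xist, from 0.25 to -0.36 for Casr and from 0.27 to -0.14 for Umod. Slc12a1 changed sign in the same way, from 0.03 with low to -0.29 with high Xist. The high-Xist side holds 1 Hes1 cKO library, and its controls include control 3, the highest control for 9 of the 10 genes. These differences were therefore not tested. With Xist as a covariate no member was called.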

How the data were processed

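The authors deposited 2 tables of whole-number read counts per gene. The first was used, unnormalized, as deposited. FastQC, STAR and DESeq2 and the builds mm10 and GRCm38 are named in the submitters' processing notes, and the annotation, the strand setting and the program that counted reads were not given in the sources used here. Columns were grouped by the genotype in their names. The other table has 9 columns whose codes show no genotype, and they were not used. The design text swaps the group sizes relative to the titles, and the titles were followed.

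Genes passing filterByExpr (minimum count 10) were scaled by TMM and compared with edgeR 4.0.16 in R 4.3.3 (quasi-likelihood test, no covariate), with Benjamini-Hochberg adjustment over 15615 genes. Called means an adjusted p under 0.05. Standard errors came from the F statistic. Single genes also had an exact two-sided permutation test on log2(CPM + 1), 35 splits. DESeq2 1.42.0 and limma 3.58.1 (voom) were alternatives. The edgeR script was tested on simulated data. Gene positions and exon lengths (joined over all transcripts of a gene) are from GENCODE M21 (GRCm38). Counting error is the least error these counts can have, since the reads carry no molecular identifiers. Within groups, pairs of libraries differed by more than sampling noise (their chi-square divided by its degrees of freedom was 11.8 to 41.0). Each library was treated as a sample, but this spread cannot show that each came from a different animal.

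The members and the other gene lists (19 lists with the members counted as 1, 115 genes in all) were chosen with earlier results of these data known. Named are Hes1, Xist, all members, called genes of the lists (of the intercalated cell list by count and examples), Slc12a1, Kcnj1, Cldn16, Egfr, Kng1, Ptgs2, Pappa2 and Ren1, the 5 genes most like the members (1 is not reported here), and, where a list is described further, its largest and smallest log2 fold change (not every list's extremes are given). Klk1 and Cd3e are outside this rule and were named after their values were seen. Gucy1a1, Gucy1b1 and Adgre1 were not found by symbol.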

Additional observations from a re-analysis of the deposited data

Results flagged for a closer look

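Control 3 held a high value of Casr, 141 CPM, where control 1, 2 and 4 had 106, 107 and 111 CPM. The gap to the next control took 0.852 of the range of the 4 controls, which is above Dixon's 95% critical value. With 11 genes examined in this manner (Hes1 and the 10 markers), chance alone flags about 1 in 20 groups. Slc12a1 (2098 CPM) and 9 of the 10 markers were also highest in control 3 among the controls. With control 3 left out, Casr had a log2 fold change of 0.12 in place of 0.01 and was not called. A group of 3, such as Hes1 cKO, is too small for this rule.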

How the results depend on the processing

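No member was called in any of 14 alternatives to the gene test, and Hes1 stayed lower and called in all 14. The count of called genes moved from 53 to 127 with DESeq2's Wald test and 102 without a low-count filter, and ran from 25 to 46 when a library was left out (25 without Hes1 cKO 2, 27 without Hes1 cKO 1; the cause was not tested). Umod stayed higher, and Ppp1r1a, Tmem207 and Kng2 lower, in every alternative. Members near 0 changed sign when a library was left out: log2 fold changes ran from -0.039 to 0.159 for Egf, -0.175 to 0.028 for Ptger3, -0.079 to 0.126 for Casr, -0.27 to 0.10 for Irx1, -0.133 to 0.049 for Irx2 and -0.083 to 0.342 for Nos1. Relative to Slc12a1, a measure chosen after seeing the data, Ptger3 (0.06) and Irx2 (0.10) changed sign. Among other genes the ranges were -0.013 to 0.229 for Egfr, -0.32 to 0.10 for Ptgs2, -0.043 to 0.269 for Pappa2 and -0.58 to 0.14 for Ren1.

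List medians moved beyond the spread between libraries only when a library was left out, and ran from -0.066 to 0.205 (macula densa), -0.004 to 0.10 (G proteins and nitric oxide partners), -0.34 to -0.21 (kinin), -0.36 to -0.14 (distal convoluted tubule), -0.25 to -0.003 (endothelium), -0.45 to 0.21 (stroma), -0.364 to -0.067 (immune) and -3.22 to 2.17 (adrenal). Among medians that stayed within that spread, the ranges were -0.10 to 0.04 for the members, -0.18 to -0.05 for TAL transport, -0.36 to -0.02 for the thin limb, -0.20 to -0.09 for the proximal tubule and -0.28 to 0.08 for injury. No paired analysis was possible because the column names carry no replicate number that the groups share. Depth limits the genes with few counts, such as Nos1 (70 to 137 counts in a library) and Kng1 (8 to 44).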
